A study of Homo sapiens with 12 samples.

Results

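The response of empty-vector U937 cells to all-trans retinoic acid (ATRA) was described across all annotated genes by setting 3 vector arrays treated with ATRA against 3 vector arrays treated with the solvent, 6 of the 12 arrays of the series. U937 is an established human line from a histiocytic lymphoma with features of immature monocytes. The cells had received either an empty vector or a vector for EVI1, a zinc finger transcription factor encoded at MECOM, so the control cells had also been through transduction; whether each line was a clone or a pool is not given in the sources used here. Logarithmically growing cells of each line received 1 µM ATRA or an equal amount of DMSO for 24 h, which gives 4 groups of 3 arrays each, described as biological replicates, and 250 ng of total RNA was amplified per array. The EVI1 arrays entered the signal limit, the choice of probe sets and the fit, where they add to the estimate of the spread, and their own response is set beside that of the vector arrays at the end.

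ATRA is the active form of vitamin A. It binds the retinoic acid receptors (RARA, RARB and RARG), which sit on DNA as dimers with a retinoid X receptor and exchange corepressors for coactivators when ligand is bound. In myeloid cells the ligand is best known for driving blocked precursors of acute promyelocytic leukaemia towards granulocytes, and in U937 cells for driving monocytic maturation.

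Levels are log2 values, so a difference of 1 is a 2-fold difference, and array values are given in the order of replicate numbers 1, 2 and 3. Of 19775 genes with a probe set of their own, 14080 reached the signal limit, a log2 value of 5 on at least 3 of the 12 arrays, and were tested. A gene was called, and is said to have risen or fallen, where the adjusted p (limma, Benjamini-Hochberg over all tested genes) was under 0.05. Arrays of the same number deviated together, so the fit pairs them by number; the same fit without the number is called the unpaired fit, and how many members of a list it called, or which, is given. Differences are given with the model's standard error (SE), and n is 3 arrays in each group throughout.

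The 6 vector arrays had between 13401 and 13774 of the genes at the limit on each array, and arrays of a group correlated at 0.991 to 0.995 across genes. They carried the RNA of granule-forming myeloid precursors. ELANE, CTSG and LYZ, which encode neutrophil elastase, cathepsin G and lysozyme, lay between 12.51 and 13.81 on every array, while the monocyte receptor CD14 was below the limit on all 6, at 4.57, 4.63 and 3.93 under DMSO and 4.48, 4.36 and 4.37 under ATRA. MPO, for myeloperoxidase, was close to the limit, at 5.41, 4.80 and 5.28 under DMSO and 5.47, 5.17 and 5.26 under ATRA. Vector DMSO array 3 lay nearer to the ATRA arrays than the other DMSO arrays for many strong responders, among them DHRS3, CD38, PALLD and THBD. Without that array their differences were 4.17, 3.09, 4.01 and 3.78, all called. A count of a gene list that moves by over 1.5 times when 1 vector array is left out is followed by its lowest value, or by the member that lost its call, and the arrays concerned. For single genes such losses are not always given. Of 255 named genes called, 158 kept the call with any 1 vector array left out. The EVI1 arrays are separate arrays, but they deviated together with the vector arrays of the same number. Over 4187 genes called from the EVI1 arrays alone, the median vector difference was taken in the direction of that call. It was 0.29, 0.36 and 0.29 at numbers 1, 2 and 3. Over the same genes and in the same direction, DMSO levels relative to the DMSO mean had medians of -0.09, 0.01 and 0.08. ATRA levels relative to the ATRA mean had medians of -0.11, 0.06 and 0.05. The position of DMSO array 3 was thus not limited to the genes named above.

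After 24 h of ATRA, 2818 of the 14080 genes were called, 20.0% of those tested. Of these, 1402 rose (9.96%) and 1416 fell (10.1%). With each array centred on its median, 1197 rose and 1777 fell. In the unpaired fit 496 were called (3.52%), 282 higher (2.00%) and 214 lower (1.52%), and all 496 were also called, in the same direction, with the pairing. The rises reached further than the falls: 175 of the genes that rose at least doubled and 42 rose at least 4-fold, against 45 and 4 of those that fell. The median difference over all tested genes was 0 and the quartiles were -0.14 and 0.14. The ATRA and DMSO arrays did not overlap for 3291 genes (23.4% of those tested), 2064 of them called. Of the 2818 called genes, 2814 had the same sign at all 3 numbers. The paired fit favours such genes, so that count follows largely from the calling, and it was not taken over all tested genes. Without vector ATRA array 2, 1238 genes were called, without vector ATRA array 1, 1289, and without vector DMSO array 3, 1911.

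**Figure D1:**
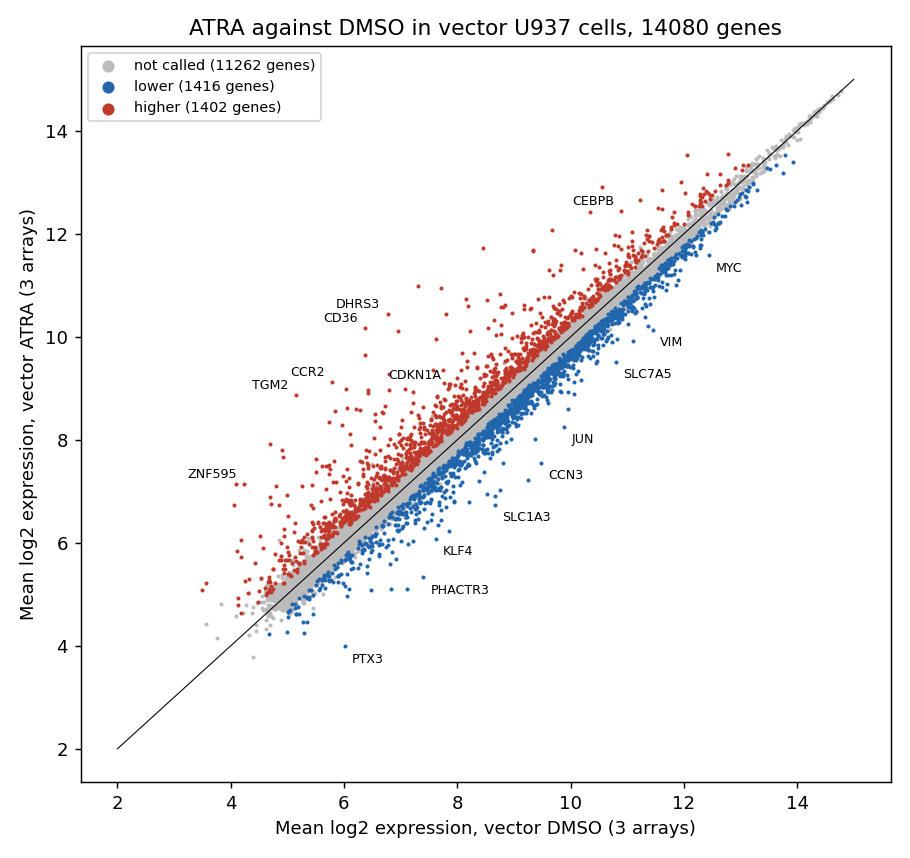
Mean log2 expression of each of 14080 tested genes in vector DMSO (x axis) and vector ATRA cells (y axis), 3 arrays each; red points rose, blue points fell and grey points were not called, and the black line marks equal levels. The points above the line reach farther from it than those below, with CD36, TGM2 and DHRS3 among the farthest above and PTX3 and PHACTR3 among the farthest below.

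Among the retinoid receptors and the enzymes that make, bind and break down retinoids, genes were called in both directions, and the size of the changes ranged widely. RARB, whose own gene carries a retinoic acid response element, had values of 5.36, 5.80 and 5.75 under DMSO and 6.03, 6.54 and 6.93 under ATRA. All 3 ATRA arrays were above all DMSO arrays, and RARB rose by 0.86 ± 0.18 (SE; adjusted p = 0.00839, 0.202 in the unpaired fit). RXRA, the shared dimer partner, fell by 0.37, and the call was lost without ATRA array 3 and in the unpaired fit (adjusted p = 0.337). RARA, the receptor most abundant in myeloid cells, differed by -0.26 ± 0.15 and did not pass (adjusted p = 0.259).

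DHRS3 encodes a reductase that turns retinaldehyde back into retinol and so limits retinoic acid synthesis. Its values were 5.30, 6.30 and 8.70 under DMSO and 10.45, 10.43 and 10.46 under ATRA. The ATRA arrays were nearly equal, while DMSO array 3 was well above the other DMSO arrays, and the difference was 3.68 ± 0.75 (adjusted p = 0.00812, 0.0714 in the unpaired fit). RBP4, the plasma carrier of retinol, rose by 0.28, and RDH10, which oxidises retinol, fell by 0.49. CYP26A1 encodes the hydroxylase that clears retinoic acid in many tissues. Its values were 5.45, 5.78 and 5.47 under DMSO and 5.30, 5.45 and 5.54 under ATRA, near the limit, the groups overlapped, and the difference of -0.14 ± 0.47 did not pass (adjusted p = 0.877). In all, 1 of 5 tested receptors rose (20%) and 1 fell (20%), against 9.96% and 10.1% of all tested genes. Of 13 tested genes of retinoid metabolism and binding, 2 rose (15.4%) and 1 fell (7.69%). The unpaired fit called 0 in either list. RBP4 lost its call without DMSO array 1 or 3 or ATRA array 1 or 2, and RDH10 without DMSO array 3 or ATRA array 1 or 2.

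The response element in question is a direct repeat of the hexamer that the receptors bind, with a spacer between the copies, here called the DR5 retinoid element. Promoter sequence from RefSeq (GRCh38.p14), 250 bases before each annotated start, was searched on both strands for the hexamer and its repeat at a spacing of 5 bases, allowing A or G at the first and G or T at the third position of each hexamer. It was in 0.074% of 35116 windows and in 8 of 11235 tested genes with a window, 3 of 1144 that rose and 0 of 1187 that fell. RARB, which rose, and CYP26A1, which was not called, are shown because both hold the element, with the element in capitals and the strand of the gene given:
RARB (chr3:25428195-25428241, + strand): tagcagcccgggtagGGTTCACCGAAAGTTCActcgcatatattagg
CYP26A1 (chr10:93073788-93073834, + strand): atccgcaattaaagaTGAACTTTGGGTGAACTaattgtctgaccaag
The RARB element reads along the gene's strand and begins 53 bases before the annotated start, and that of CYP26A1 lies on the opposite strand 90 bases before it. A match describes these letters only, and which RARB start these cells used was not measured.

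The genes with the largest rises formed a set of surface receptors, enzymes and cytoskeletal proteins. CD36, a scavenger receptor for fatty acids and oxidised lipoproteins, had values of 5.72, 6.54 and 6.85 under DMSO and 9.50, 10.90 and 10.13 under ATRA. Every ATRA array lay above every DMSO array, and the difference was 3.81 ± 0.47 (adjusted p = 0.000731). TGM2, the tissue transglutaminase that cross-links proteins, had 5.20, 4.57 and 5.69 under DMSO and 7.64, 9.25 and 9.75 under ATRA, a difference of 3.73 ± 0.40 (adjusted p = 0.000415). PALLD, an actin-binding scaffold of stress fibres, had 6.54, 6.64 and 8.76 under DMSO and 10.62, 11.02 and 11.29 under ATRA, a difference of 3.66 ± 0.33. The DMSO values of PALLD were separated by number 3, which was over 2 units above the other numbers.

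CCR2, the receptor through which monocytes follow CCL2, had values of 5.13, 5.84 and 6.40 under DMSO and 9.12, 9.29 and 8.97 under ATRA. Its ATRA values were tightly grouped, and it rose by 3.34 ± 0.25 (adjusted p = 9.3e-05). NCF1, the p47 organiser of the phagocyte oxidase, rose by 3.27 ± 0.51; near-identical gene copies exist, so its probe set may read them too. PTGES, the last enzyme of prostaglandin E2 synthesis, rose by 3.26 ± 0.36, and CD1D, which presents lipids to NKT cells, by 3.23 ± 0.35. LILRA5, an activating immunoglobulin-like receptor, had values of 4.16, 4.69 and 5.25 under DMSO and 7.91, 8.82 and 7.04 under ATRA. It was called with all arrays (difference 3.22 ± 0.79, adjusted p = 0.0181) but not in the unpaired fit (adjusted p = 0.0701) and not with any vector array left out other than ATRA array 3.

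THBD, the thrombin receptor thrombomodulin, rose by 3.16 ± 0.38. ACKR3, a scavenging receptor for CXCL12, was below the limit on the 3 DMSO arrays and above it on the 3 ATRA arrays, at 4.20, 3.89 and 4.21 under DMSO and 6.24, 7.81 and 7.40 under ATRA. PLAAT4, a phospholipase long known as a retinoid-responsive gene, rose by 2.96 ± 0.26, KCNE1, a potassium channel subunit, by 2.91 ± 0.31, and ZNF595, a zinc finger protein, by 2.91 ± 0.19. HIC1 encodes a transcriptional repressor, and its values were 4.21, 4.31 and 6.26 under DMSO and 7.69, 7.37 and 7.96 under ATRA. The groups did not overlap and the difference was 2.75 ± 0.41, with adjusted p = 0.00171 and, in the unpaired fit, 0.0554. The other 12 of these 15 genes were called in both fits, DHRS3 and LILRA5 being the remaining exceptions.

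The largest falls were smaller than the largest rises, and all 15 were called in both fits and with any 1 vector array left out. PHACTR3, a regulator of protein phosphatase 1 and actin, had values of 7.82, 7.30 and 7.08 under DMSO and 5.73, 5.50 and 4.76 under ATRA, a difference of -2.07 ± 0.15 (adjusted p = 8.98e-05). PTX3, a secreted pattern recognition molecule of the pentraxin family, had values of 6.02, 6.25 and 5.76 under DMSO and 3.97, 4.02 and 3.97 under ATRA. It lay below the limit on every ATRA array, and the difference was -2.02 ± 0.17. TENT5C, a non-canonical poly(A) polymerase, fell by 2.02, CEP70, a centrosomal protein, by 2.00, and CCN3, a secreted matricellular protein, fell by 1.93.

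SLC1A3, which carries glutamate and aspartate into the cell, had values of 8.71, 8.72 and 8.54 under DMSO and 6.98, 6.52 and 6.68 under ATRA. The groups were separated by over 1.5 units, and it fell by 1.93. PLXNC1, a semaphorin receptor, fell by 1.76, TRIM71, an RNA-binding ubiquitin ligase of stem cells, by 1.72, CAB39L, a partner of the kinase LKB1, by 1.72 and SDCBP, the adaptor syntenin, by 1.65. JUN, a subunit of the AP-1 factor, had values of 9.94, 10.06 and 9.68 under DMSO and 8.04, 8.47 and 8.24 under ATRA, and fell by 1.64 (adjusted p = 0.00739). S1PR3, a receptor for sphingosine 1-phosphate, fell by 1.58, KLF4, a zinc finger factor of monocytic maturation, by 1.54, INPP5A, an inositol phosphate phosphatase, by 1.41 and NOG, the BMP antagonist noggin, by 1.40.

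**Figure D2:**
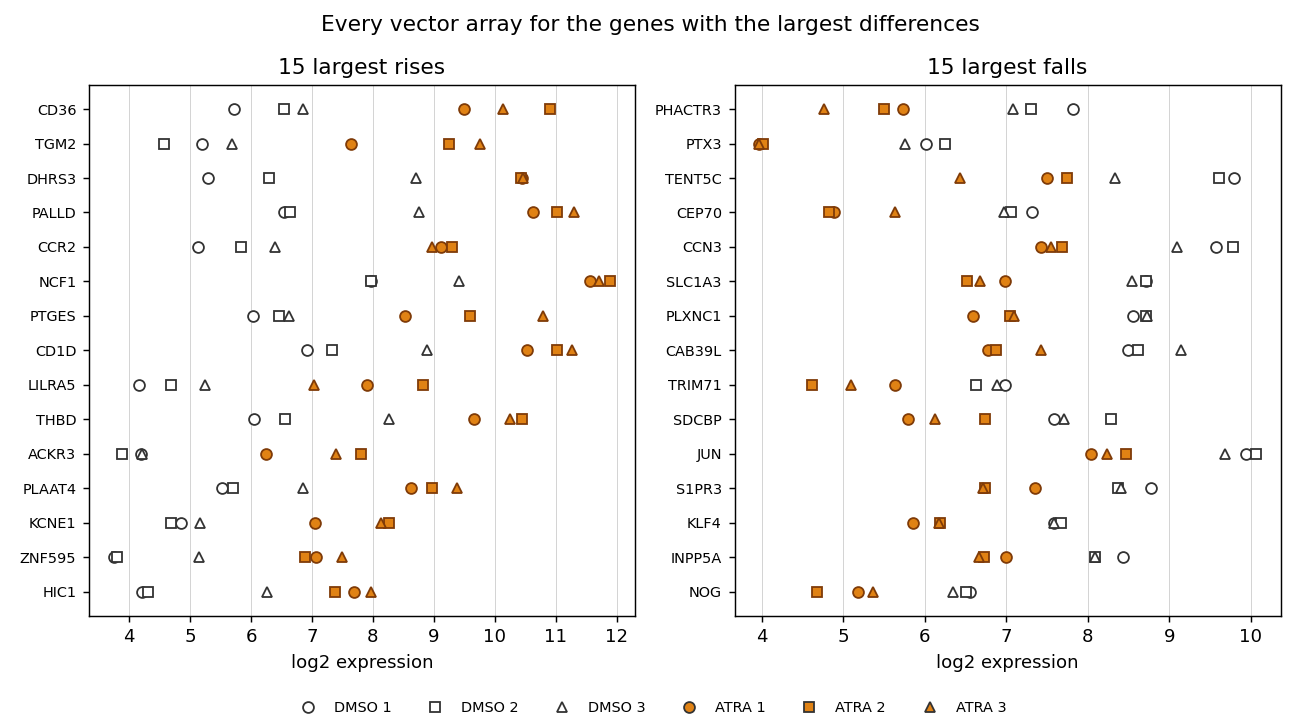
log2 expression (x axis) of the 15 genes with the largest rises (left) and the 15 with the largest falls (right) on every vector array; open symbols are DMSO, filled symbols ATRA, and the shape gives the replicate number. In each row all filled symbols lie on the same side of all open symbols, which the rule that chose the genes required. The DMSO symbol of number 3 (open triangle) lies nearest to the ATRA symbols in many rows. Among these are DHRS3, PALLD, NCF1, CD1D, THBD, HIC1, CD36, TGM2 and CCR2 on the left and PHACTR3, PTX3, SLC1A3 and JUN on the right.

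Within the myeloid transcription factors, members rose and fell side by side. CEBPB, a C/EBP factor of macrophage and emergency granulocyte differentiation, had values of 10.62, 10.67 and 11.40 under DMSO and 12.06, 12.67 and 12.61 under ATRA. Every ATRA array was above every DMSO array, and CEBPB rose by 1.55 ± 0.20 (adjusted p = 0.000774). CEBPE, the C/EBP factor of late granulocyte maturation, had values of 7.37, 7.20 and 7.44 under DMSO and 8.29, 8.54 and 8.15 under ATRA. It rose by 0.99 ± 0.21 (adjusted p = 0.0106), but was not called in the unpaired fit (adjusted p = 0.0521) or without ATRA array 1 or 2. MAFF, a small MAF protein, rose by 1.10, and MEIS1, a cofactor of HOX proteins, by 0.42. Besides KLF4, the precursor factors LYL1 and LMO2, which act together in haematopoietic progenitors, fell by 0.72 and 0.62, the ETS factor ERG by 0.62 and MYB, which maintains immature cells, by 0.40. CEBPA (difference -0.19 ± 0.09, adjusted p = 0.182) and SPI1, encoding PU.1 (difference 0.10 ± 0.12, adjusted p = 0.619), did not pass. Of 25 tested factors 4 rose and 5 fell, with a median difference of -0.10; CEBPB, KLF4, LYL1 and LMO2 were the 4 called in the unpaired fit. Without ATRA array 1 or 2, 1 rose, and without either of these or DMSO array 3, 3 fell.

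MYC, the growth-promoting dimer partner of MAX, had values of 12.36, 12.49 and 12.48 under DMSO and 11.67, 11.47 and 11.61 under ATRA. All ATRA values were below all DMSO values, and MYC fell by 0.86 (SE 0.17; adjusted p = 0.00713, 0.0286 in the unpaired fit). MXI1, an antagonist of MYC that also binds MAX, fell by 0.55, while MXD1, an antagonist associated with differentiation, differed by 0.05 ± 0.11 and did not pass. The other 9 of 11 tested MAX network genes were not called. Among 22 immediate early genes, which respond within minutes to growth factors and stress, 4 rose and 2 fell. ID1, an inhibitor of helix-loop-helix factors, rose by 2.07 ± 0.33, IER3 by 1.30 ± 0.41, the antiproliferative gene BTG1 by 0.75 and ID2 by 0.47; besides JUN, SRF, the serum response factor, fell by 0.36. ID1, ID2 and JUN were called in the unpaired fit. IER3 lost its call with any vector array other than ATRA array 3 left out.

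**Figure D3:**
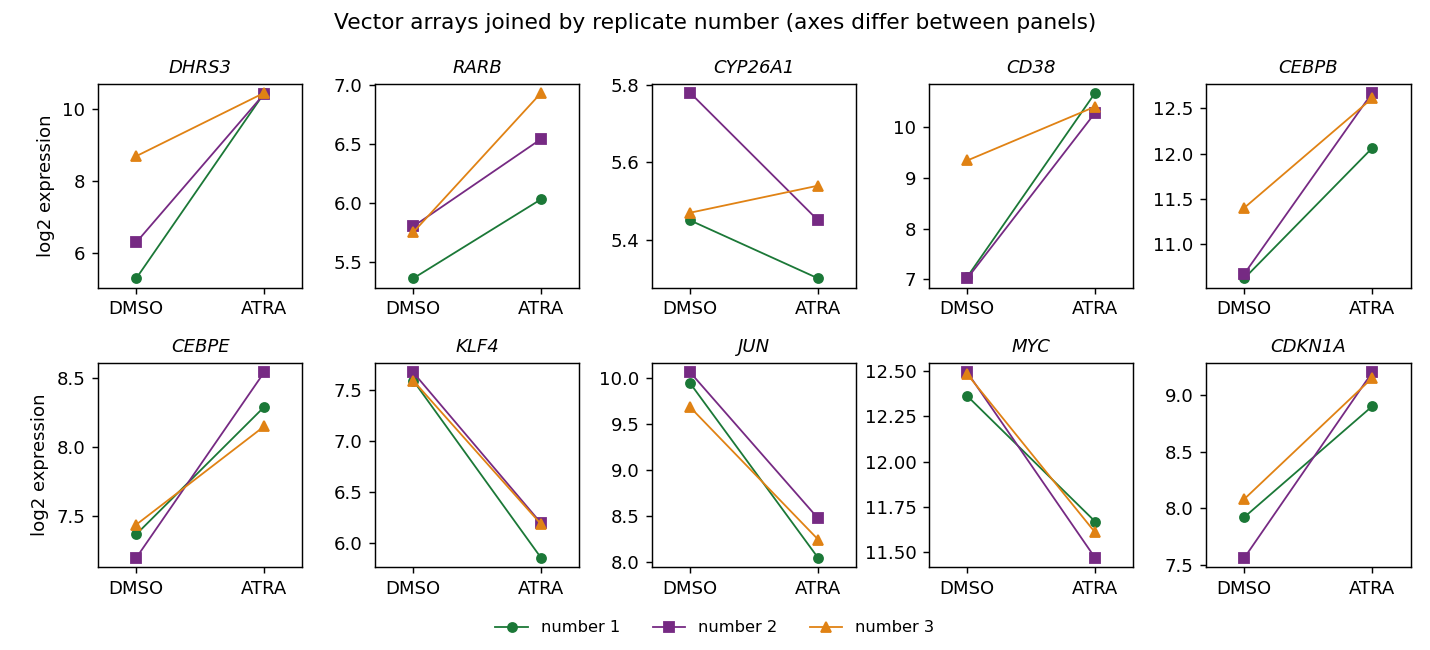
log2 expression (y axis, its range differing between panels) under DMSO and ATRA for 10 genes in the 6 vector arrays; each line joins the arrays of the same replicate number. The lines of all numbers rise for DHRS3, RARB, CD38, CEBPB, CEBPE and CDKN1A and fall for KLF4, JUN and MYC, whereas those of CYP26A1 go both ways.

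Other nuclear receptors and the coregulators were called in both directions, against 20.0% called of all tested genes. Of 14 tested receptors outside the retinoid family, 4 rose and 3 fell, and of 12 coregulators 2 rose and 2 fell; the unpaired fit called 0 in either list. NR1H3, the oxysterol receptor LXR-alpha of macrophages, had values of 6.36, 6.36 and 6.44 under DMSO and 6.91, 7.30 and 7.11 under ATRA, and rose by 0.72 ± 0.19 (adjusted p = 0.023, 0.187 in the unpaired fit). NR2C1 rose by 0.61, NR2C2 by 0.27 and PPARA, a fatty acid receptor, by 0.34. The clock repressor NR1D2 fell by 0.51, NR2F6 by 0.28 and VDR, the vitamin D receptor, by 0.26. Without DMSO array 2, 0 of the receptors were called higher, and without DMSO array 3, ATRA array 1 or ATRA array 2, 0 were called lower. Of the coregulators the acetyltransferase KAT2B rose by 0.61 and LCOR by 0.36, while TBL1X, a part of the NCOR corepressor complex, fell by 0.63 and the arginine methyltransferase CARM1 by 0.57; without ATRA array 2, 1 coregulator rose. NRIP1, a coregulator often raised by retinoic acid, was below the limit on every vector array, between 2.71 and 3.09. Of 7 tested HOX genes HOXB5 rose by 0.29, a call lost in the unpaired fit and with any vector array other than DMSO array 2 left out.

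Among cell cycle genes, 2 CDK inhibitors rose and few replication and mitosis genes were called. CDKN1A, which encodes the inhibitor p21, had values of 7.92, 7.56 and 8.08 under DMSO and 8.90, 9.20 and 9.15 under ATRA. The groups did not overlap, and CDKN1A rose by 1.23 ± 0.17 (adjusted p = 0.00112, 0.0192 in the unpaired fit). CDKN2D, which encodes p19, an inhibitor of CDK4 and CDK6, rose by 1.02 ± 0.23 (adjusted p = 0.0121). CDKN1B, which encodes p27, differed by 0.03 ± 0.13 and did not pass. In the list of 10 CDK inhibitors and RB proteins all 10 differences were positive, with a median of 0.07, and 2 were called; CDKN2D lost its call without DMSO array 2 or ATRA array 1 or 2. Of 11 G1 cyclins and kinases CDK6 fell by 0.33, of 28 replication genes ORC6 rose by 0.38, and of 24 mitosis genes the kinase PLK1 fell by 0.28; these 3 calls were lost in the unpaired fit. CDK6 also lost its call without DMSO array 1 or 3 or ATRA array 2, and ORC6 and PLK1 with any vector array other than DMSO array 2 left out. The median differences of the replication and mitosis lists were -0.07 and 0.10. In bulk RNA, fewer cells with a transcript and less of it per cell cannot be told apart.

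Genes of biosynthesis and growth made up the lists with the most falls. Of 22 tested genes of RNA polymerase I and ribosome assembly, 13 fell and 0 rose, against 10.1% and 9.96% of all tested genes, all 22 differences were negative, and the median was -0.35 against 0 over all genes. The largest were NOP16 (-0.61) and RRP9 (-0.55), both nucleolar assembly factors, PES1 (-0.46), which acts on the large subunit, and the polymerase subunits POLR1B (-0.45), POLR1E (-0.43) and POLR1C (-0.43). The changes were small, and the unpaired fit called 0 of them; without ATRA array 1, 7 fell. Of 16 RNA polymerase III genes 5 fell, led by POLR3G, a subunit of stem and tumour cells, with values of 8.06, 7.70 and 8.09 under DMSO and 7.18, 6.26 and 6.93 under ATRA. It fell by 1.16 and was the member called in the unpaired fit; without DMSO array 2 or 3 or ATRA array 1 or 2, 3 of the list fell.

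Nucleotide and one-carbon synthesis had 15 of 22 tested genes lower and 0 higher, with a median of -0.32. PSAT1, of serine synthesis, had values of 11.51, 11.37 and 11.05 under DMSO and 10.65, 10.49 and 10.02 under ATRA and fell by 0.92 (SE 0.17; adjusted p = 0.00442). PPAT, the committed step of purine synthesis, fell by 0.52, the mitochondrial folate enzyme MTHFD2 by 0.52, PFAS by 0.49, PRPS2 by 0.47 and CAD, of pyrimidine synthesis, by 0.44. The unpaired fit called 0 of the 15, and without ATRA array 2, 3 fell. Among 8 genes of polyamine synthesis SRM, spermidine synthase, fell by 0.86 and ODC1, the committed step, by 0.44, while SAT1, which acetylates polyamines for export, rose by 0.86; SAT1 alone was called in the unpaired fit.

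Many amino acid transporters and aminoacyl-tRNA synthetases fell. Of 16 amino acid transporters 9 fell and 0 rose, with a median of -0.35. SLC7A5, the light chain of the leucine transporter LAT1, had values of 11.16, 10.93 and 10.35 under DMSO and 10.05, 9.45 and 9.07 under ATRA. It fell by 1.29 (SE 0.15; adjusted p = 0.000514, 0.128 in the unpaired fit), and its heavy chain SLC3A2 fell by 0.71. SLC1A4 fell by 0.75, SLC38A1 by 0.68 and SLC1A5, a glutamine transporter, by 0.57; SLC1A3 was the member called in the unpaired fit. Of 17 aminoacyl-tRNA synthetases 9 fell, led by GARS1 (-0.48), FARSA (-0.41) and FARSB (-0.40), and the tryptophan enzyme WARS1, which interferon also induces, rose by 0.54. GARS1 and WARS1 were called in the unpaired fit, and without ATRA array 1, 2 synthetases fell. WARS1 lost its call without DMSO array 1 or 2 or ATRA array 1 or 2.

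The chaperonin and HSP90 partner list had 11 of 20 lower and all 20 differences negative, led by the HSP90 cochaperone FKBP4 (-0.65) and the chaperonin subunit CCT6A (-0.40), with HSPH1 at -0.39 and STIP1 at -0.36. The mitochondrial ribosome had 8 of 20 lower, led by MRPL4 (-0.66) and MRPS2 (-0.49). The unpaired fit called 0 in either list; without ATRA array 2, 3 chaperone genes fell, and without DMSO array 3, ATRA array 1 or ATRA array 2, 3 mitochondrial ribosome genes fell. In the respiratory chain list, of 21 tested members SDHC rose by 0.28 and CYCS, cytochrome c, fell by 0.27, and the median was 0. Both calls were lost in the unpaired fit, that of SDHC whichever of the 6 vector arrays was left out and that of CYCS without DMSO array 1 or 2 or ATRA array 1 or 2. Of 23 genes of the unfolded protein and amino acid response 6 fell and 0 rose, led by TRIB3 (-0.56) and XBP1 (-0.53), with VLDLR at -0.47, SDF2L1 at -0.44, the amino acid response factor ATF4 at -0.40 and the chaperone HSPA5 at -0.31; the unpaired fit called 0 of these, without ATRA array 2, 3 fell, and HSPA5 lost its call whichever of the 6 vector arrays was left out.

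MYC and its relatives bind the E-box CACGTG, so the promoter windows were searched for that hexamer, which reads the same on both strands. It was in 6.34% of all windows, in 10.8% of tested genes with a window, in 9.44% of those that rose and in 15.2% of those that fell. It was counted in some of the growth lists and in the mitosis list, over members with a window. It was in 7 of 15 amino acid transporters, 2 of 7 polyamine genes and 4 of 18 nucleotide genes. It was in 1 of 17 genes of RNA polymerase I and ribosome assembly and in 4 of 19 mitosis genes. The windows of 4 genes that fell are shown, 1 hexamer each in capitals, on the strand of the gene:
SLC7A5 (chr16:87869617-87869652, - strand): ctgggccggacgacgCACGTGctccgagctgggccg
SRM (chr1:11060197-11060232, - strand): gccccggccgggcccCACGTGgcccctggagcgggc
ODC1 (chr2:10448021-10448056, - strand): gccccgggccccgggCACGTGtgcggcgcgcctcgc
PPAT (chr4:56435777-56435812, - strand): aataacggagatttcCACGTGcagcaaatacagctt
The hexamer was in 3 of 6 amino acid transporters that were not called and in 4 of 9 that fell. In the nucleotide list it was in 2 of 6 not called and 2 of 12 called. The polyamine list had 0 of 4 and 2 of 3, and the RNA polymerase I list 0 of 8 and 1 of 9. Of the mitosis genes not called it was in 3 of 18. No binding was measured.

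**Figure D4:**
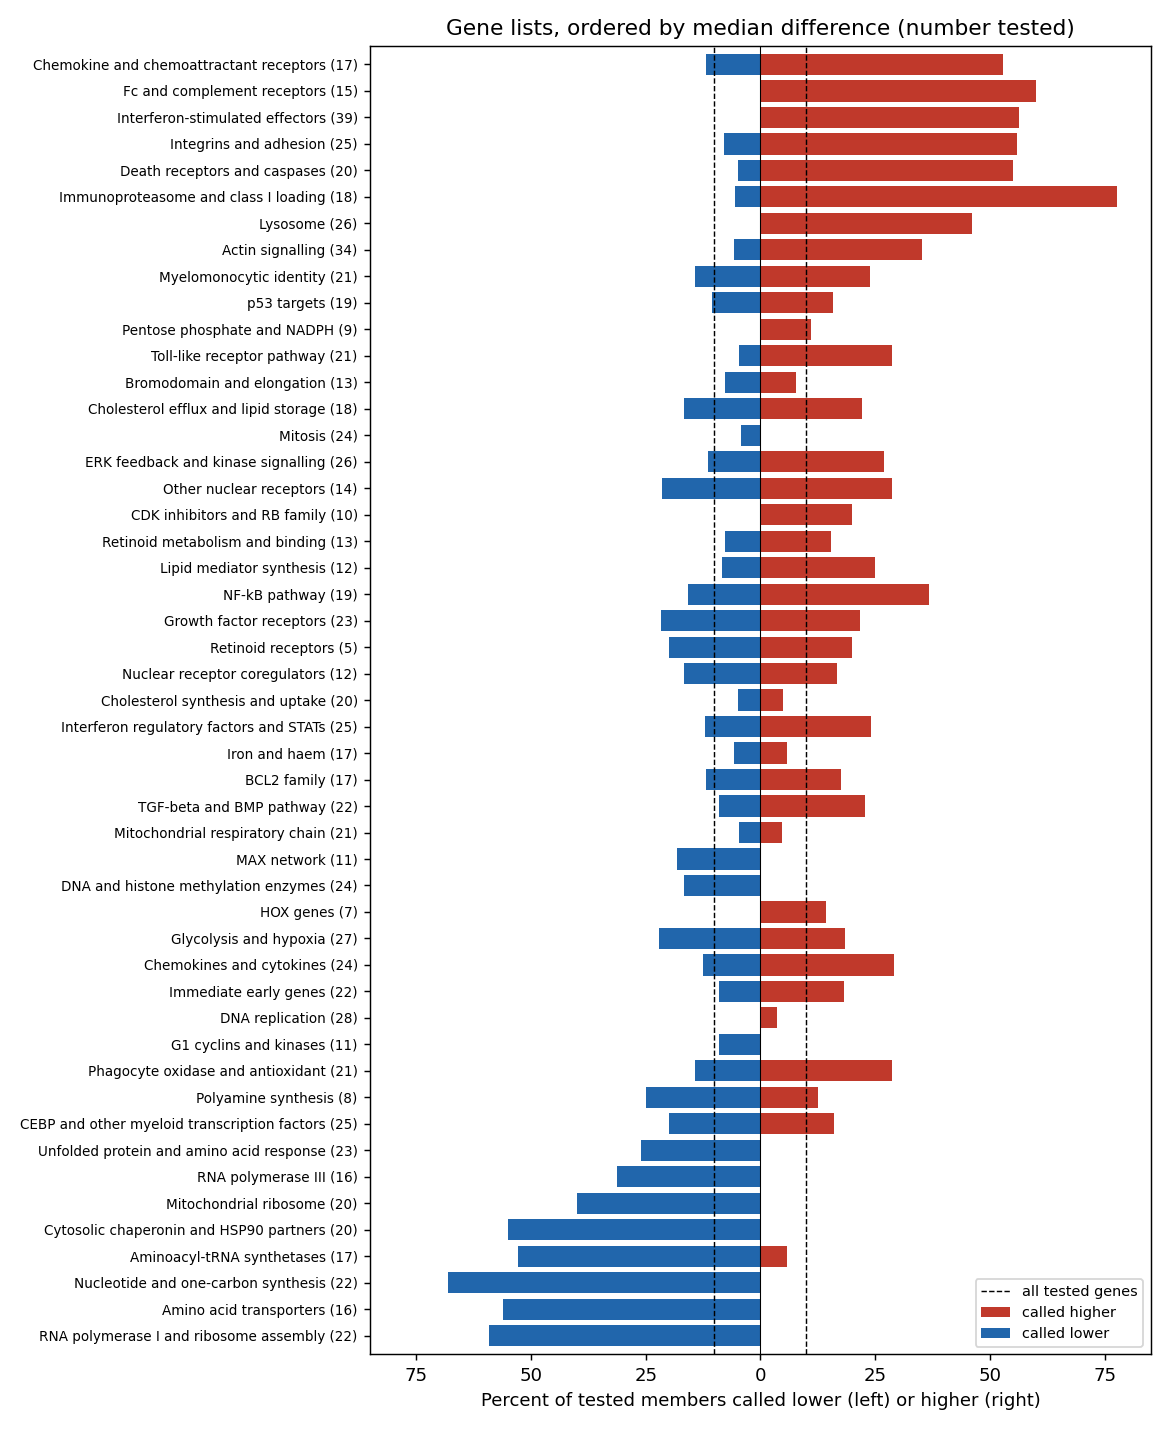
Percent of the tested members of each gene list that were called higher (red, right) or lower (blue, left) in vector cells, with lists ordered by median difference and the number tested in brackets; dashed lines mark the shares over all tested genes, 9.96% higher and 10.1% lower. The red bars are longest for the immunoproteasome and class I list (14 of 18) and the blue bars for nucleotide and one-carbon synthesis (15 of 22), while the cell cycle lists stay near or inside the dashed lines, apart from the CDK inhibitors.

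Antiviral genes of the interferon system rose broadly. Of 39 tested interferon-stimulated effectors 22 rose and 0 fell, 34 differences were positive, and the median was 0.63. OAS1, which makes the activator of RNase L, had values of 4.26, 5.03 and 4.87 under DMSO and 6.10, 6.55 and 7.60 under ATRA. It rose by 2.03 ± 0.31 (adjusted p = 0.00205), but was not called in the unpaired fit (adjusted p = 0.0779). SAMHD1, which destroys dNTPs and restricts retroviruses, had values of 7.34, 7.47 and 7.91 under DMSO and 8.90, 9.55 and 9.63 under ATRA. Its groups were far apart, and it rose by 1.79 ± 0.11 (adjusted p = 3.33e-05, 0.00309 in the unpaired fit). IFI6 rose by 1.47, the ADP-ribosyltransferase PARP14 by 1.37 and the RNA-binding proteins IFIT3 and IFIT2 by 1.36 and 1.33. IFIT2 lost its call with any vector array other than DMSO array 1 left out. Its other probe set, near the limit, differed by 0.01 ± 0.17. The unpaired fit called 7 of the list higher, SAMHD1 and PARP14 among those named, and 17 rose without DMSO array 3 or without ATRA array 1. RIGI, the cytosolic sensor of viral RNA, differed by 0.08 ± 0.08 and did not pass. Its other probe sets, with lower mean levels, differed by 0.52 ± 0.15 and 0.31 ± 0.19, so the value depends on the probe set chosen.

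Of the 25 interferon regulatory factors, STATs and their regulators 6 rose and 3 fell. IRF1, an activator of class I and antiviral genes, had values of 6.99, 6.91 and 7.73 under DMSO and 8.96, 8.75 and 9.06 under ATRA. The groups did not overlap, and IRF1 rose by 1.71 ± 0.16 (adjusted p = 0.000203). IRF7, the amplifier of type I interferon, rose by 1.06, IRF9, the DNA-binding part of ISGF3, by 0.92 and IRF2 by 0.36. The cytokine feedback inhibitors SOCS2 and CISH fell by 0.80 and 0.42, and IRF5 by 0.24. IRF1, IRF7, SOCS2 and CISH were called in the unpaired fit, and without DMSO array 2 or 3 or ATRA array 1 or 2, 3 rose.

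In the immunoproteasome and class I loading list 14 of 18 tested genes rose and 1 fell, with a median of 0.36. PSMB9, an inducible catalytic subunit of the immunoproteasome, had values of 9.10, 9.10 and 10.05 under DMSO and 10.79, 10.53 and 10.87 under ATRA, and rose by 1.31 ± 0.18 (adjusted p = 0.00109). The peptide-trimming enzymes ERAP2 and ERAP1 rose by 1.09 and 0.91, the peptide editor TAPBPL by 0.99, PSMB10 by 0.81 and the proteasome activator PSME1 by 0.68. The HLA genes that rose did so by less than these, and their probe sets may read more than 1 HLA gene. CALR, calreticulin of the loading complex, fell by 0.36. The unpaired fit called PSMB9, TAPBPL, PSMB10 and PSME1, and 9 rose without DMSO array 2, ATRA array 1 or ATRA array 2. CALR lost its call with any vector array other than ATRA array 2 left out.

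Interferon-activated factors and IRFs bind variants of GAAANNGAAA, where N is any base. This decamer was searched on both strands and was in 3.02% of all windows, 3.13% of tested genes, 4.81% of those that rose and 2.86% of those that fell. It was in 19 of 30 interferon-stimulated effectors with a window, 7 of 15 class I genes and 1 of 20 interferon regulatory factors and STATs. Windows of 5 genes that rose are shown with 1 match each in capitals, on the strand of the gene, where a match to the other strand reads TTTCNNTTTC:
IFI6 (chr1:27672261-27672300, - strand): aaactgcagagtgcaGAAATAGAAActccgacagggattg
PARP14 (chr3:122680795-122680834, + strand): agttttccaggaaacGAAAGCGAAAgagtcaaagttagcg
IFIT3 (chr10:89332463-89332502, + strand): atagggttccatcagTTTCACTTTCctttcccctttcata
PSMB10 (chr16:67936851-67936886, - strand): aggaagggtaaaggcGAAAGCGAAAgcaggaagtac
ERAP2 (chr5:96876455-96876494, + strand): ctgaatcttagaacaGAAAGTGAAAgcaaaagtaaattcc
IFI6 holds 3 matches and IFIT3 holds 4 over its annotated starts, and in some other genes matches overlap each other. The decamer was in 11 of 18 effectors that rose and in 8 of 12 that were not called. In the class I list it was in 5 of 13 called genes and in 2 of 2 not called, and no binding was measured.

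Many receptors for antibody, complement and chemoattractants rose. Of 15 Fc and complement receptors 9 rose and 0 fell, with a median of 0.64. ITGAM, the CD11b chain of complement receptor 3 and a marker of myeloid maturation, had values of 5.16, 5.69 and 6.36 under DMSO and 7.71, 8.89 and 8.45 under ATRA. All ATRA arrays were above all DMSO arrays, and ITGAM rose by 2.61 ± 0.29 (adjusted p = 0.000438). Its partner chain ITGB2 rose by 0.64 and the CD11c chain ITGAX by 0.86 ± 0.16 (adjusted p = 0.0044, 0.104 in the unpaired fit). CR1, the C3b receptor, rose by 2.31, the Fc receptor gamma chain FCER1G by 1.35, C3AR1 by 1.23 and the neonatal Fc receptor FCGRT by 0.98. The unpaired fit called 3 of the 9, ITGAM, C3AR1 and FCGRT.

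Of 17 chemokine and chemoattractant receptors 9 rose and 2 fell, with a median of 0.69, and the unpaired fit called 6 and 1, among those named CCR2, ACKR3, CCR1, CCRL2 and S1PR3. Besides CCR2 and ACKR3, CCR1, a receptor of CCL3 and CCL5, had values of 7.48, 8.15 and 8.93 under DMSO and 10.35, 10.68 and 10.78 under ATRA, and rose by 2.42 ± 0.23 (adjusted p = 0.000244). CCRL2 rose by 1.29 and the fractalkine receptor CX3CR1 by 0.92; besides S1PR3, the oxysterol receptor GPR183 fell by 0.56. Of 25 integrin and adhesion genes 14 rose and 2 fell, with a median of 0.39. ITGAL, the CD11a chain of LFA-1, rose by 1.92 ± 0.34, ITGA6 by 1.35 and ITGB7 by 1.15, while CD47, the signal against phagocytosis, fell by 0.79 and SELPLG, the P-selectin ligand, by 0.39. ITGAM, ITGAL, ITGB7, ICAM3 and CD47 were called in the unpaired fit, and without ATRA array 2, 8 rose. SELPLG lost its call without DMSO array 2 or 3 or ATRA array 2 or 3.

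CD38, a surface NAD glycohydrolase long known as a retinoic acid target in myeloid cells, had values of 7.05, 7.02 and 9.34 under DMSO and 10.67, 10.28 and 10.40 under ATRA. DMSO array 3 was over 2 units above the other DMSO arrays, yet below all ATRA arrays, and the difference was 2.65 ± 0.54 (adjusted p = 0.00823, 0.071 in the unpaired fit, and 0.0505 without ATRA array 1). In the list of myelomonocytic identity 5 of 21 rose and 3 fell. TYROBP, the adaptor DAP12, had values of 7.62, 8.16 and 8.47 under DMSO and 9.32, 9.80 and 9.91 under ATRA and rose by 1.59 ± 0.18, the growth factor receptors KIT and CSF3R rose by 0.83 and 0.70 and cystatin C, CST3, by 0.48. The granule genes CTSG and LYZ fell by 0.56 and 0.46 and ANPEP by 0.35. CSF1R, the macrophage colony-stimulating factor receptor, differed by 0.25 ± 0.15 and MPO by 0.14 ± 0.14, neither passing. KIT was the member called in the unpaired fit, 3 rose without DMSO array 2 or 3 or ATRA array 1 or 2, 1 fell without DMSO array 3 or ATRA array 1, CD68 has no probe set of its own in the annotation used, and CD14 stayed below the limit.

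Transcripts of the phagocyte oxidase and of prostaglandin synthesis were among those that rose. NCF1 had values of 7.97, 7.96 and 9.41 under DMSO and 11.56, 11.89 and 11.71 under ATRA. CYBB, its membrane-bound catalytic subunit, had 9.04, 10.13 and 11.06 under DMSO and 11.20, 11.97 and 11.86 under ATRA, a difference of 1.60 ± 0.23 (adjusted p = 0.00139, 0.141 in the unpaired fit), and CYBA, its partner, rose by 0.53. The antioxidant genes GCLM, PRDX1 and NQO1 fell by 0.55, 0.51 and 0.45. Of the 21 oxidase and antioxidant genes 6 rose and 3 fell; NCF1 and CYBA were called in the unpaired fit. Without DMSO array 3 or ATRA array 1 or 2, 3 of the list rose, and without ATRA array 1, 1 fell. Among 12 genes of lipid mediator synthesis, PTGES had values of 6.04, 6.46 and 6.62 under DMSO and 8.53, 9.59 and 10.79 under ATRA. Upstream of it, PTGS1, cyclooxygenase 1, rose by 1.68 ± 0.27, and ALOX5AP, which feeds 5-lipoxygenase, by 1.47 ± 0.16, while the prostaglandin receptor PTGER2 fell by 0.37; the 3 rises were called in both fits, and PTGER2 was called neither in the unpaired fit nor without DMSO array 1 or 2 or ATRA array 1 or 2.

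Of 26 lysosomal genes 12 rose and 0 fell, with a median of 0.28. GRN, progranulin, rose by 1.25 ± 0.18, the protease CTSD by 1.10 ± 0.11, GUSB by 0.96, PSAP, which yields the saposins, by 0.93, HEXA by 0.75 and TPP1 by 0.74. HEXA, CTSS and NPC2 were called in the unpaired fit, and with 1 vector array left out between 10 and 13 rose. Of 34 genes of actin signalling 12 rose and 2 fell. PLEK, the protein kinase C substrate pleckstrin, rose by 1.06, the actin-severing protein GSN by 0.92 and the myosins MYO1F and MYO1G by 0.64 and 0.61. VIM, vimentin, an intermediate filament, had values of 11.61, 11.82 and 10.93 under DMSO and 10.17, 10.53 and 9.71 under ATRA, fell by 1.32 (adjusted p = 0.000108, 0.0584 in the unpaired fit), and EZR fell by 0.29. PALLD, PLEK, MYO1F and CAPG were called in the unpaired fit, and without DMSO array 2 or ATRA array 1, 5 of the list rose. EZR lost its call with any vector array other than DMSO array 1 left out. MYO1G lost its call with any vector array other than ATRA array 3 left out. The other probe set of MYO1G, at the same mean level, differed by 0.13 ± 0.13.

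**Figure D5:**
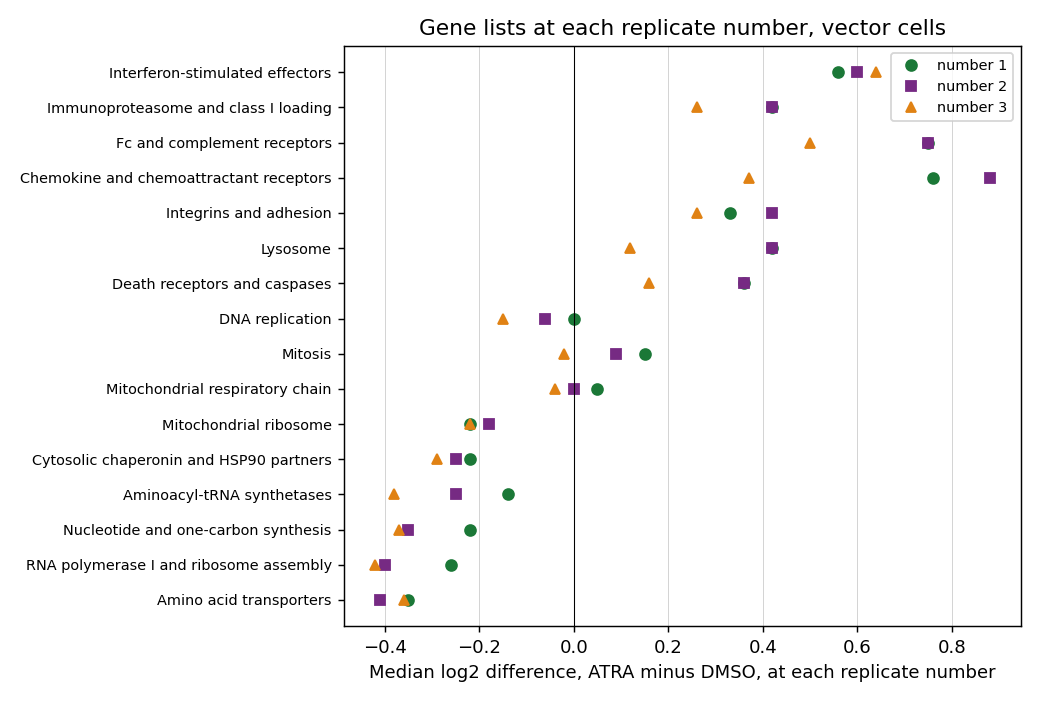
Median log2 difference (ATRA minus DMSO, x axis) over the tested members of 16 gene lists in vector cells, computed separately at each replicate number (shape and colour). The immune, adhesion, lysosome and death receptor lists lie above 0 and the biosynthesis lists below 0 at all 3 numbers, the replication, mitosis and respiratory chain lists lie around 0, and most of the raised lists have their smallest median at number 3.

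Secreted factors and their sensors changed gene by gene. Of 24 tested chemokines and cytokines 7 rose and 3 fell, with a median of -0.04. The chemokine CCL20 rose by 1.43 ± 0.18, CCL23 by 0.90, the inflammasome-processed cytokine IL18 by 0.76, CXCL16 by 0.71 and IL1B by 0.63, while VEGFA, the endothelial growth factor, fell by 0.86, the interleukin-12 subunit IL12A by 0.46 and IL32 by 0.41. CCL23 and VEGFA were called in the unpaired fit, and without DMSO array 2, ATRA array 1 or ATRA array 2, 3 rose. IL1B lost its call with any vector array other than DMSO array 1 left out. In the Toll-like receptor list 6 of 21 rose and 1 fell. LY96, the MD-2 partner of TLR4, had values of 3.72, 4.64 and 5.16 under DMSO and 5.25, 6.47 and 6.70 under ATRA, and rose by 1.63 ± 0.14 (adjusted p = 0.000174, 0.169 in the unpaired fit). NLRC4, an inflammasome sensor, rose by 1.33, the flagellin receptor TLR5 by 0.74, NLRP3 by 0.58, the adaptor PYCARD by 0.44 and the protease CASP1 by 0.47, whereas the kinase IRAK1 fell by 0.36; NLRC4 and CASP1 were called in the unpaired fit, and IRAK1 lost its call without ATRA array 2.

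Of 19 NF-kB pathway genes 7 rose and 3 fell, and the unpaired fit called 0; without ATRA array 2, 2 rose, and without ATRA array 1, 0 fell. NFKBIZ rose by 0.60, the deubiquitinase CYLD by 0.54 and the subunit REL by 0.50, while TRAF3 fell by 0.46, NFKBIB by 0.35 and the kinase CHUK by 0.33. In the list of ERK feedback and kinase signalling 7 of 26 rose and 3 fell. The SRC-family kinase FGR had values of 7.59, 7.85 and 9.02 under DMSO and 10.70, 10.84 and 10.67 under ATRA. Its groups lay far apart, and FGR rose by 2.58 ± 0.35 (adjusted p = 0.00112). PIK3CG, the lipid kinase of chemoattractant signalling, rose by 1.43, and the ERK inhibitors DUSP6 and SPRY2 by 1.20 and 0.84. The inducible phosphatases DUSP1, DUSP2 and DUSP5 fell by 0.72, 0.68 and 0.36. Other probe sets of DUSP1 differed by -0.04 and 0.06, and its call was lost whichever of the 6 vector arrays was left out. DUSP2 lost its call with any vector array other than DMSO array 3 left out. FGR and PIK3CG were called in the unpaired fit, and 4 of the list rose without DMSO array 2, ATRA array 1 or ATRA array 2. With any vector array other than DMSO array 3 left out, 1 of the list fell.

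Of 22 TGF-beta and BMP genes 5 rose and 2 fell, with 11 positive and 11 negative differences and a median of 0. BMP2 rose by 0.77 (adjusted p = 0.0047, 0.175 in the unpaired fit), and ID1, a direct target of BMP receptors, had values of 8.56, 8.64 and 9.08 under DMSO and 10.74, 11.46 and 10.29 under ATRA. NOG, which sequesters BMP ligands, had values of 6.56, 6.51 and 6.35 under DMSO and 5.18, 4.68 and 5.37 under ATRA. ID1 was higher and NOG lower on every ATRA array than on every DMSO array, and BMP signalling itself was not tested. Receptor TGFBR2 rose by 0.59, TGFBR1 fell by 0.58 and the SMAD corepressor SKIL rose by 0.76. ID1, ID2, TGFBR2 and NOG were called in the unpaired fit, and TGFBR1 lost its call without DMSO array 1 or ATRA array 1 or 2. Among 23 growth factor receptors 5 rose and 5 fell: besides KIT, CSF3R and TGFBR2, IL10RB rose by 0.70 and IL13RA1 by 0.37, while IL18R1, IL6R, IL17RA, INSR and IGF1R fell by 0.87, 0.66, 0.64, 0.52 and 0.34. IL6R, IL10RB, KIT and TGFBR2 were called in the unpaired fit. Without DMSO array 2 or ATRA array 1, 3 rose and 3 fell, and without ATRA array 2, 3 rose.

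In metabolism the list of glycolysis and hypoxia held opposite changes of 2 hexokinases. HK3, the hexokinase of mature myeloid cells, had values of 6.09, 6.77 and 7.54 under DMSO and 9.15, 9.32 and 9.37 under ATRA. It rose by 2.48 ± 0.24 (adjusted p = 0.000259), whereas HK2, the inducible isoform of proliferating cells, had values of 10.94, 10.71 and 10.80 under DMSO and 10.07, 9.75 and 10.02 under ATRA and fell by 0.87 (adjusted p = 0.00031); both were called in the unpaired fit. DDIT4, an inhibitor of mTORC1, rose by 2.09, NDRG1 by 0.96, PFKFB4 by 0.46 and BNIP3L by 0.44, while BNIP3 fell by 0.60. In all 5 of 27 rose and 6 fell, with a median of -0.02, and without ATRA array 2, 2 fell. HK3, DDIT4, HK2 and VEGFA were the members called in the unpaired fit. Of 9 genes of the pentose phosphate path PGD rose by 0.78, in both fits.

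Cholesterol synthesis stayed near 0: of 20 tested genes SREBF1 rose by 0.79 and SCAP fell by 0.23, both lost in the unpaired fit, with a median of 0.03. SCAP lost its call with any vector array other than DMSO array 1 left out. In the list of efflux and lipid storage, besides CD36 and NR1H3, the lipid droplet coat protein PLIN2 rose by 0.65 and SOAT1, which esterifies cholesterol, by 0.63; SCARB1, DGAT2 and ACSL1 fell by 0.49, 0.37 and 0.29. That makes 4 higher and 3 lower of 18, and CD36 alone was called in the unpaired fit. Without DMSO array 2 or 3 or ATRA array 2, 2 rose, and without DMSO array 1 or any of the ATRA arrays, 1 fell. Of 17 genes of iron and haem ALAS1, the committed enzyme of haem synthesis, rose by 0.70 and STEAP3 fell by 0.69, both lost in the unpaired fit. ALAS1 lost its call with any vector array other than DMSO array 1 left out.

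Several caspases and their regulators rose. Of 20 death receptors, caspases and their regulators 11 rose and 1 fell, with a median of 0.37. The kinase DAPK1 rose by 0.91, the inflammatory caspase CASP4 by 0.64, DAPK2 by 0.56 and CASP8 by 0.53. TNFRSF10B, a receptor for the death ligand TRAIL, had values of 8.57, 8.50 and 8.29 under DMSO and 7.85, 7.78 and 7.66 under ATRA, and fell by 0.69 (adjusted p = 0.00032). CASP1, CASP4, CASP8 and TNFRSF10B were called in the unpaired fit, and without ATRA array 1 or 2, 4 rose. In the BCL2 family BIK, BNIP3L and BAX rose by 0.49, 0.44 and 0.24, BNIP3 and HRK fell by 0.60 and 0.43, and the unpaired fit called 0 of 17; without DMSO array 2 or ATRA array 2 or 3, 0 fell, and BAX lost its call whichever of the 6 vector arrays was left out. Of 19 p53 targets CDKN1A, SAT1 and BAX rose and TNFRSF10B and GADD45B fell, GADD45B by 0.33; BAX and GADD45B were lost in the unpaired fit. GADD45B also lost its call with any vector array other than DMSO array 2 left out.

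Among DNA and histone methylation enzymes 16.7% fell, against 10.1% of all tested genes. In the bromodomain and elongation list 7.69% rose and 7.69% fell, against 9.96% and 10.1%. Of 24 DNA and histone methylation enzymes TET1, which oxidises methylcytosine, fell by 0.72, DOT1L by 0.45, KDM1A, the demethylase LSD1, by 0.39 and EHMT2 by 0.34, and 0 rose. Of 13 bromodomain and elongation genes AFF1 rose by 0.28 and CDK8 fell by 0.35. The unpaired fit called 0 in both lists. Without ATRA array 2, 2 methylation enzymes fell, AFF1 lost its call with any vector array other than DMSO array 3 left out, and CDK8 without DMSO array 1 or ATRA array 1 or 2.

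Markers of other cells stayed low on average, though many single markers reached the signal limit. By list this ranged from 5 of 10 epithelial markers to 12 of 16 T and NK markers, against 14080 of 19775 genes. Over the 6 marker lists the mean level lay between 4.87 and 5.53 on every vector array. In the lists of erythroid, megakaryocyte, T and NK, and epithelial markers 0 of 6, 0 of 6, 0 of 12 and 0 of 5 tested genes were called. EBF1, a B cell factor, fell by 1.02 (adjusted p = 0.0129, 0.0528 in the unpaired fit; lost without DMSO array 1 or ATRA array 1), the other 6 tested B cell markers not being called, and FAP, a fibroblast marker, rose by 0.90, the other 6 tested fibroblast and endothelial markers not being called.

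Setting the response beside that of the EVI1 cells, 5023 genes were called for ATRA in EVI1 cells, of which 2341 were called in the same direction and 4 in the opposite direction in vector cells, and 473 genes passed in vector cells without passing there. The test of the difference between the responses called 0 genes (0% of those tested) with or without the pairing, although 1846 and 362 had an unadjusted p under 0.05; the smallest adjusted p was 0.346. Nothing in the response is therefore shown to differ between the lines. JUN differed by -1.64 in vector cells and by -0.12 in EVI1 cells, RARB by 0.86 and 2.08, CYP26A1 by -0.14 and 1.39, PLXNC1 by -1.76 and -0.91, THBD by 3.16 and 1.73, and ZNF595 by 2.91 in both. Without replicate number 3 the test called 1 gene, GDF15.

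Other probe sets of the same gene gave a check on the choice of probe set. For 1563 called genes with further probe sets, 2545 of 2882 of those had the sign of the chosen one (88.3%), against 66.6% for genes not called. For the 30 genes named for their size 24 of 26 had the same sign, the exceptions belonging to LILRA5 and S1PR3. Only signs were counted, and sizes varied. Further probe sets of CD36 differed by 4.21 and 4.23, but 1 each of PLXNC1, HIC1, KCNE1 and TGM2 by -0.18, 0.39, 0.58 and 0.48. Precision is limited by there being 3 arrays to a group.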

How the data were processed

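The values are log2 expression levels deposited by the authors, which the submitters' processing notes attribute to RMA (robust multi-array average) and Affymetrix Expression Console 1.3; the settings are not given in the sources used here. RMA normalises across arrays, so a change shared by most genes would be removed. GEO's annotation of the array named 41097 of 54675 probe sets for 1 gene, and the probe set with the highest mean over 12 arrays stood for each of 19775 genes. A model of the 4 groups with the replicate number as a block was fitted over the whole series by limma 3.58.1 (R 4.3.3; lmFit, eBayes; 6 residual degrees of freedom; 8 in the unpaired fit) after the signal limit of 5 on 3 arrays, with 2-sided tests.

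Number 1, 2 and 3 come from the labels. Deviations from the group means correlated at 0.48 to 0.66 between vector arrays of the same number (3 pairs; 0.41 to 0.70 over all 18 pairs of groups and numbers), so the numbers were taken to pair the arrays. Between other numbers they correlated at -0.48 to -0.05. Deviations cancel out within a group, so these negative values follow from the positive ones and are no separate evidence of pairing. The labels do not say what a number shares.

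The comparison and the 55 gene lists were chosen with earlier results of these data known, so lists are described by counts and medians without a test. Genes named are the 15 largest rises and 15 largest falls with groups that do not overlap, up to 6 called members of each list by size, all members called where 5 or fewer were, and a set named whatever they did (RARA, RARB, DHRS3, CYP26A1, TGM2, CD38, CEBPA, CEBPB, CEBPE, SPI1, MYC, MXD1, CDKN1A, CDKN1B, ITGAM, ITGAX, CD14, CD68, CSF1R, MPO, IRF1, RIGI, NRIP1 and HIC1; a few further items are not reported here). ITGB2, ICAM3, CAPG, CTSS, NPC2 and GDF15 were named after their values were seen. Promoter windows are from RefSeq (GRCh38.p14). Alternatives were the unpaired fit, vector arrays alone, each array or number left out, other limits on signal, the mean over probe sets, median centring, quantile normalisation and a trended, robust eBayes.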

Additional observations from a re-analysis of the deposited data

Results flagged for a closer look

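Probe sets that the annotation does not name for 1 gene also responded. Of 13578 such probe sets, 11777 of them not listed in the annotation used, 5782 reached the signal limit, and 244 were called higher and 214 lower in vector ATRA cells (limma, paired fit). That is 7.92% of them, against 12.9% of all 32017 probe sets tested. They were left out of the comparison of genes, and which transcripts they read is not known here.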

How the results depend on the processing

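Without the replicate block 496 genes were called instead of 2818 (282 higher, 214 lower), and 145 instead of 220 at 2-fold or more; of 264 named genes 91 kept their side of the threshold. With 1 array or 1 number left out, the count ranged from 445 to 2450 (240 to 1337 higher, 205 to 1113 lower, and 151 to 285 at 2-fold or more), lowest without number 2. It moved by over 1.5 times without vector DMSO array 2 (1612), vector ATRA array 1 (1289), vector ATRA array 2 (1238) or number 1 (1169), as did the count of falls without vector DMSO array 3 (828) or number 3 (751); these fits use fewer arrays. The interaction ranged from 0 to 1 gene. Of 255 named genes called, 158 kept the call with any 1 vector array left out. Under other signal limits, the mean over probe sets, median centring, quantile normalisation, vector arrays alone or the trended fit the count lay between 2335 and 3121. No called gene changed sign in any alternative other than the mean over probe sets, where 10 of 2729 did. With 1 array or number left out CYP26A1 ranged from -0.50 to 0.10 (reversed to 0.10 without vector DMSO array 2 and 0.09 without vector ATRA array 3) and CDKN1B from -0.09 to 0.11 (reversed to -0.09 and -0.07 without those arrays and -0.03 without number 3). CDKN1B was also -0.01 with median centring, and MXD1 was -0.02 without vector DMSO array 3; none of these was called. NR2C2 reversed to -0.05 and CYCS to 0.02 with the mean over probe sets, and the cause was not tested beyond that construction. Signals near the limit of 5, as for CYP26A1, MPO and PTX3 under ATRA, bound what differences could be seen.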

Other observations

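After the 30 genes described for their size come further surface and secreted products, listed here as chosen after their values were seen. MS4A4A, a tetraspanning membrane protein of macrophages, had values of 4.82, 5.94 and 6.78 under DMSO and 7.36, 9.34 and 8.99 under ATRA, and GPR34, a receptor for lysophosphatidylserine, had 3.65, 4.09 and 4.42 under DMSO and 5.71, 7.23 and 7.28 under ATRA. They rose by 2.72 ± 0.29 and 2.69 ± 0.33 (limma; adjusted p = 0.000415 and 0.000684, and 0.114 and 0.0292 in the unpaired fit). The inhibitory receptor CD300A rose by 2.55, the splicing regulator HNRNPLL by 2.54, CFP, the complement regulator properdin, by 2.49, the calprotectin subunit S100A9 by 2.38, the fructose transporter SLC2A5 by 2.36 and HBEGF, an EGF receptor ligand, by 2.33. In each of these genes the values at all 3 replicate numbers were higher under ATRA. That follows from how they were taken, from called genes whose groups did not overlap.

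Among the next largest falls were GSAP, the gamma-secretase activating protein, at -1.35, PHLDA2 at -1.31, SERINC5, a restriction factor of retroviruses, at -1.36, NFE2L3 at -1.24, CST7, cystatin F, at -1.19 and BCL11A, a repressor of lymphoid and erythroid cells, at -1.17. BCL11A had values of 10.14, 9.99 and 10.07 under DMSO and 8.89, 8.66 and 9.13 under ATRA, and its groups did not overlap. For these genes no list was tested, and no theme is drawn from them.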
